A study of Mus musculus with 34 samples.

Results

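The mitochondrial genome of CAD cells, a mouse catecholaminergic cell line that takes on a neuronal form when serum is removed, was followed through its 37 genes: 13 that encode proteins, 2 that encode rRNAs and 22 that encode tRNAs. The members were taken by name, as every gene whose symbol starts with mt-, and no measured value entered that choice. They were 37 of the 37310 gene identifiers in the count tables, of which 32620 (87.43%) matched a symbol.

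The 13 proteins are core subunits of respiratory complexes I, III, IV and V, and the 2 rRNAs belong to the mitochondrial ribosome. Mitochondrial DNA is transcribed from both strands into long precursors, which are cut at the tRNAs that lie between the other genes, and much of the RNA that is antisense to genes is degraded. All of the protein genes except mt-Nd6 are read from one strand, called the main strand here, while mt-Nd6 and several tRNAs lie on the other. The messenger RNAs carry poly(A) tails, with mt-Nd6 the known exception, and the mature tRNAs do not. These libraries were selected for poly(A), so own-strand reads of mt-Nd6 and of the tRNAs are not levels of polyadenylated RNA like those of the other protein genes. How well the selection captured the rRNAs was not tested.

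The series held 34 libraries, of which the 28 RNA-seq libraries in 13 groups and 3 experiments were used here, and the 6 small RNA libraries were not. All were CAD cells, grown with 10% fetal bovine serum or moved to medium without it. The first experiment compared wild-type cells and cells labelled mir-138 DKO, each in serum and after 1 day without serum, with 2 libraries a group. The second compared wild-type cells in serum and after 4 days without it, with 3 libraries a group; the third used cells labelled mir-138 DKO, with 2 libraries a group. In the third experiment, 1 group in serum had no transfection named, and the others received a miR-138 mimic or a miR-137 mimic at 3 nM, or pUC19 DNA as control. Serum was withdrawn 48 h after transfection, and RNA was taken at withdrawal ("in serum" below) or 2 days later. A genotype field on the 4-day libraries names the knockout, whereas their titles and the series' design name wild type, and wild type was used. Whether the knockout line was 1 clone was not given in the sources used here. Nothing in the labels says that replicates were separate cultures, so p-values measure only the spread between libraries, which may be technical.

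The libraries held 12740836 to 41505181 reads assigned to genes, and replicates differed by more than sampling noise in every pair. The primary transcript locus Mir138-1 did not verify the DKO label: it averaged 0.622 CPM (counts scaled to library size) ± 0.0907 (SD, n = 2) in wild-type and 6.83 ± 1.27 (SD, n = 2) in DKO-labelled cells in serum, and 1.06 to 2.76 in the groups of the third experiment. The 12 neuronal and catecholamine markers summed to 3433 CPM in wild-type serum libraries and to 1642 in DKO-labelled ones, where Th, the rate-limiting enzyme of catecholamine synthesis, was at 0 in both libraries. The neuronal tubulin Tubb3 averaged 465 and 27.3 CPM in the same groups. Th was above 0 in some library of every other DKO-labelled group. Of 5 leukocyte markers, Ptprc was at 0 in all 13 groups and the 5 summed to at most 1.98 CPM. The 7 glial markers summed to 2.21 to 18.1 CPM. The 5 fibroblast markers summed to 1.47 CPM in wild-type and 8.47 in DKO-labelled serum libraries of the first experiment. Their highest sum in any group was 37.6, with miR-138 at 2 days.

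Not every mitochondrial gene could be measured. Of the 13 protein genes, 7 had at least 1049 reads in each of the 28 libraries: mt-Nd1, mt-Nd2, mt-Nd4, mt-Nd5 and mt-Nd6 of complex I, mt-Cytb of complex III and mt-Co1 of complex IV. The other 6, mt-Co2, mt-Atp8, mt-Atp6, mt-Co3, mt-Nd3 and mt-Nd4l, never passed 36 reads, and all 6 were listed at 0 in the third experiment. They form one unbroken stretch of the mitochondrial gene order. Reads that map to several places were not counted, and they made up between 6.77% and 7.95% of reads in libraries sequenced as pairs and between 16.4% and 18.5% in those of the third experiment, so these low counts are no measure of expression. RefSeq gives mt-Atp6 as a synonym of a nuclear copy, Gm10925, which has no line in the tables; the related copies Gm10222, Gm13340 and Gm13341 had at most 14, 73 and 64 reads in a library. The part of such copies in the low counts was not tested.

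Both rRNAs, mt-Rnr1 of the small and mt-Rnr2 of the large ribosomal subunit, had at least 1657 reads in every library. The tRNAs had at most 637, and 4 of the 22 were at 0 in all 28 libraries. After a filter on low counts, 17 members were tested in the first experiment (8 protein genes, 2 rRNAs, 7 tRNAs), 19 in the second (10, 2 and 7) and 20 in the third (7, 2 and 11). The filter therefore set which members appear below, and a protein gene tested beyond the 7 above had fewer than 2 CPM in every group.

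**Figure D1:**
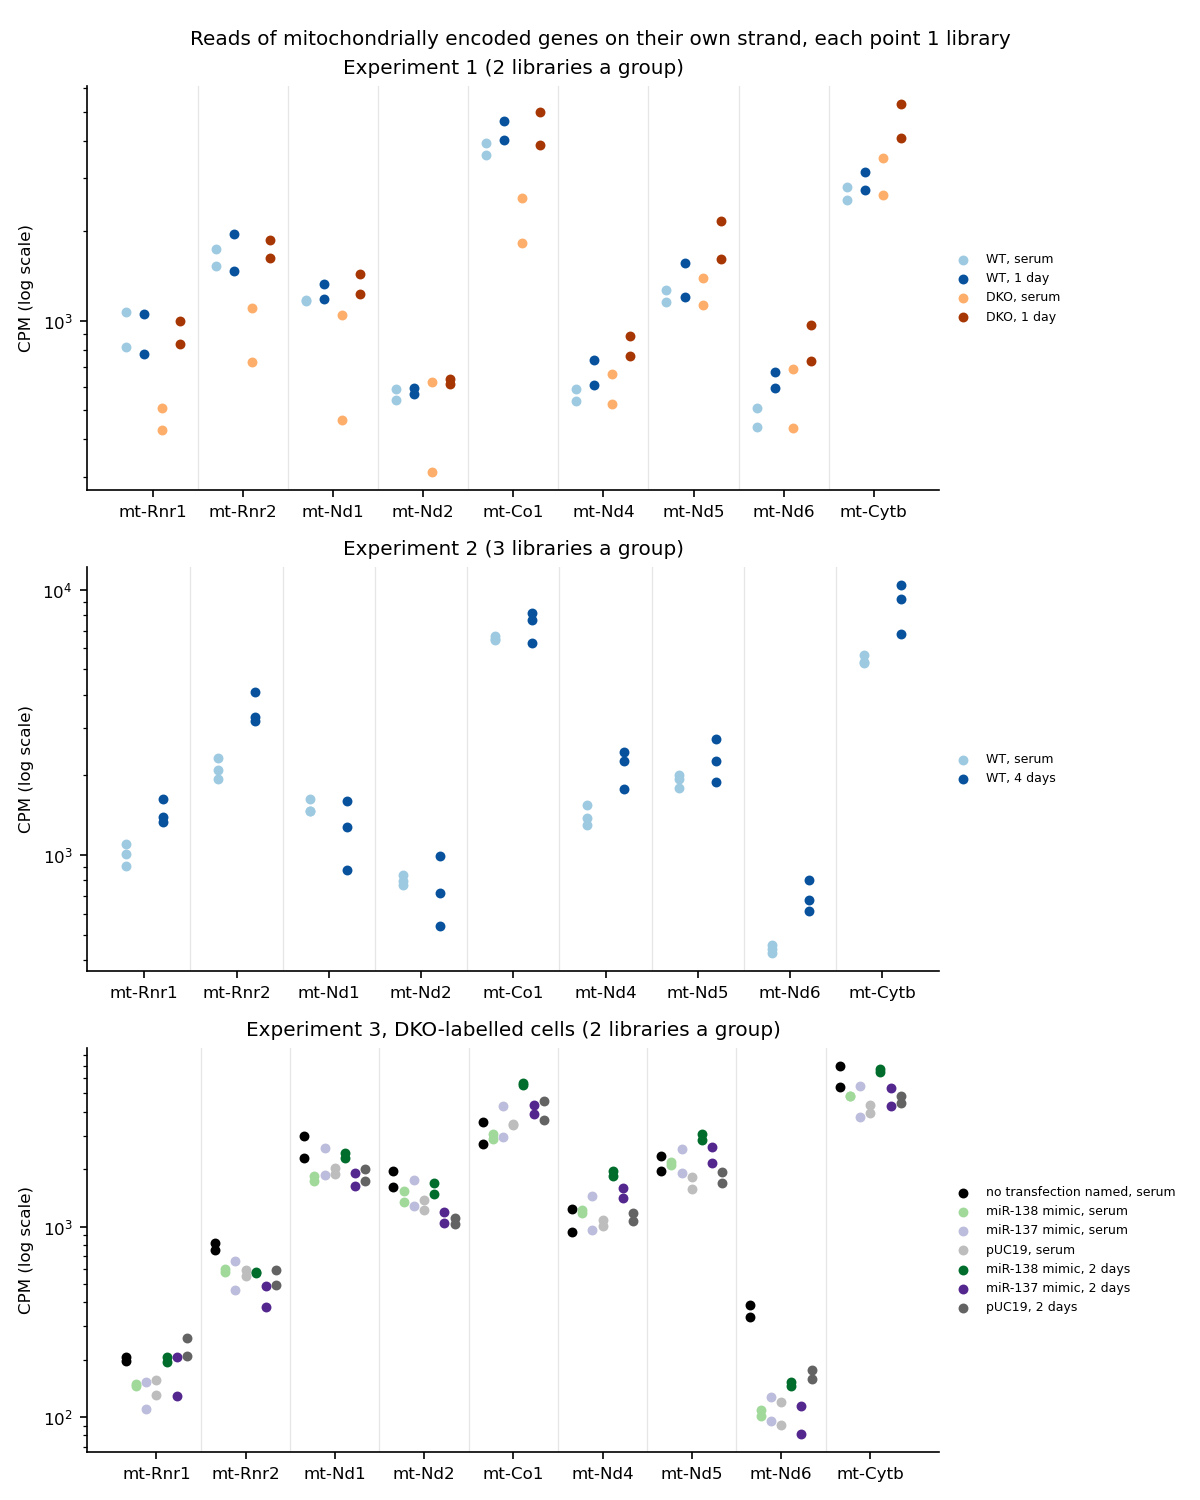
Levels of the 7 protein genes and 2 rRNAs with enough reads, in CPM on a log axis, 1 point per library, in the 3 experiments. The rRNAs of DKO-labelled cells in serum lie below the other groups of the first experiment, and mt-Nd6 of the third experiment lies highest in the libraries with no transfection named.

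Protein genes took 1.031% ± 0.0551 (SD, n = 2) of assigned reads in wild-type cells in serum and 1.196% ± 0.124 (SD, n = 2) after 1 day without it. In DKO-labelled cells the share was 0.872% ± 0.217 (SD, n = 2) in serum and 1.49% ± 0.245 (SD, n = 2) after 1 day. In the second experiment it was 1.711% ± 0.0608 (SD, n = 3) in serum and 2.455% ± 0.446 (SD, n = 3) at 4 days. Among the transfected cells the highest mean was 2.25% ± 0.0779 (SD, n = 2), with the miR-138 mimic at 2 days, and the others lay between 1.341% and 1.601%. These shares are of each experiment's own libraries, which differed in read length and preparation, and were not compared across experiments. The 2 DKO-labelled serum libraries stood apart from each other, with all members at 0.836% and 1.19% of reads.

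Differences were tested with edgeR's quasi-likelihood test on the counts of all genes in an experiment, with Benjamini-Hochberg adjustment within each of 18 comparisons and a threshold of 0.05. A log2 fold change of 1 is a doubling, and its error is a standard error (SE). All levels are CPM after scaling, compared between groups for the same gene and never between genes. In these bulk libraries, fewer cells of a type and less RNA per cell cannot be told apart.

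In wild-type cells, no member of the 17 tested passed after 1 day without serum, while 20.4% of all genes tested were higher and 20.3% were lower. The 8 protein genes had a median log2 fold change of 0.17, against 0.02 over all genes; 2 had an unadjusted p under 0.05, and DESeq2 called 0. The nearest was mt-Nd6, with 510 and 440 CPM in serum and 675 and 593 at 1 day, a log2 fold change of 0.42 ± 0.16 (adjusted p = 0.0536). Its groups did not overlap, and those of mt-Nd4 (0.25 ± 0.11) did not either. The rRNAs differed by -0.05 ± 0.14 (mt-Rnr1) and 0.07 ± 0.15 (mt-Rnr2), with overlapping libraries. Without the second 1-day library, 1 protein gene, mt-Nd4, passed; 5 protein genes passed with no low-count filter, 3 with the compared libraries alone, 2 with library totals, 2 with the replicate block and 1 with RLE scaling. The proliferation marker Mki67 averaged 693 CPM in serum and 335 at 1 day in these libraries.

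In DKO-labelled cells the same day without serum raised 6 of 8 protein genes, both rRNAs and 2 of 7 tRNAs, and lowered none, where 19.9% of all genes were higher and 20.4% lower. The protein genes' median was 0.58, against 0.01 over all genes. The catalytic subunit gene mt-Co1 had 1818 and 2574 CPM in serum and 3883 and 4992 at 1 day, a 2.02-fold rise (log2 1.01 ± 0.13, adjusted p = 4e-05). For mt-Rnr1, the serum libraries had 429 and 511 CPM and the 1-day libraries 836 and 1000 (log2 0.97 ± 0.14). Each 1-day library of these genes lay above both serum libraries.

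The large-subunit rRNA mt-Rnr2 rose 1.90-fold (log2 0.93 ± 0.16). The complex I genes mt-Nd1 (0.82 ± 0.23), mt-Nd4 (0.47 ± 0.11), mt-Nd5 (0.58 ± 0.13) and mt-Nd6 (0.59 ± 0.16) rose, as did mt-Cytb (0.61 ± 0.12); mt-Nd2 had 0.42 ± 0.20 and did not pass. Of the 6, 2 kept passing when the second 1-day DKO-labelled library was left out, namely mt-Co1 and mt-Cytb. DESeq2 called 4 of the 8. Mki67 averaged 731 CPM in serum and 549 at 1 day in these cells; its part in the result was not tested.

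DKO-labelled and wild-type cells were compared in serum and at 1 day. In serum, both rRNAs and 2 protein genes were lower in DKO-labelled cells and none was higher, where 21.5% of all genes were lower and 19.2% higher. Levels of mt-Rnr1 were 1068 and 813 CPM in wild-type and 429 and 511 in DKO-labelled libraries, a fold change of 0.50 (SE 0.14 on the log2 scale, adjusted p = 6.09e-05). Those of mt-Rnr2 (-0.83 ± 0.15), mt-Co1 (-0.78 ± 0.13) and mt-Nd1 (-0.64 ± 0.23) were lower too. The 4 genes stand towards the start of the main-strand gene order, as does mt-Nd2 (-0.29 ± 0.20, not passed). Further along it, mt-Nd4, mt-Nd5 and mt-Cytb had 0.08 ± 0.11, 0.06 ± 0.13 and 0.20 ± 0.12. The DKO-labelled libraries stood apart at mt-Nd1, with 463 and 1044 CPM against 1167 and 1176 in wild-type ones. At mt-Nd2 they had 311 and 621 against 544 and 591. Whether levels go with gene order was not tested. The median of the protein genes tested was -0.11, against -0.01 over all genes. It includes mt-Atp6 (-0.37 ± 0.83), whose low counts are no measure of expression. Among the other protein genes tested the middle value was that of mt-Nd5, 0.06 ± 0.13, so the median shows no lean of these genes to lower levels.

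This serum contrast depended on single libraries. Leaving out either wild-type serum library ended the call of mt-Nd1 (1 protein gene left), and without the second DKO-labelled library 3 passed, with mt-Nd2 added. Without the first DKO-labelled library 5 protein genes passed: mt-Nd4, mt-Nd6 and mt-Cytb were then higher in DKO-labelled cells. DESeq2 called 1 protein gene and both rRNAs.

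After 1 day without serum, 4 of 8 protein genes were higher in DKO-labelled cells and none was lower, with 21.9% of all genes higher and 23.0% lower. They were mt-Cytb (0.67 ± 0.12), mt-Nd5 (0.45 ± 0.13), mt-Nd6 (0.42 ± 0.16) and mt-Nd4 (0.29 ± 0.11). The cytochrome b gene mt-Cytb had 3151 and 2734 CPM in wild-type and 4083 and 5299 in DKO-labelled libraries, with no overlap (adjusted p = 0.000469). The rRNAs differed by 0.01 ± 0.14 and 0.03 ± 0.15. Without the second wild-type or the second DKO-labelled 1-day library, 1 protein gene was left, mt-Cytb, and DESeq2 called 1.

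The difference between the responses of the 2 cell labels was tested as an interaction. It passed for mt-Rnr1 (1.01 ± 0.20), mt-Rnr2 (0.86 ± 0.22) and mt-Co1 (0.81 ± 0.19), all with a larger rise in DKO-labelled cells, where 5.36% of all genes had a higher and 4.37% a lower interaction. The 7 other protein genes did not pass: mt-Nd1 had 0.72 ± 0.33 and mt-Cytb 0.48 ± 0.17. The count of 1 protein gene moved to 0 without the first wild-type serum, the second wild-type 1-day or the second DKO-labelled 1-day library. It moved to 2 without the first DKO-labelled serum or the first DKO-labelled 1-day library, and to 7 without the second DKO-labelled serum library. For mt-Rnr2 the call was lost on leaving out either wild-type serum library, the second wild-type 1-day library or the second DKO-labelled 1-day library. DESeq2 called 0 protein genes and 1 of the 2 rRNAs.

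In wild-type cells of the second experiment, 4 days without serum raised 4 of 10 protein genes tested, both rRNAs and 5 of 7 tRNAs, and lowered none of the 19 members tested; 36.2% of all genes were higher and 34.7% lower. The median of the 10 protein genes tested was 0.45, against 0.04 over all genes. It includes mt-Co3 (0.91 ± 0.66), mt-Co2 (0.85 ± 0.58) and mt-Atp6 (0.17 ± 0.60), whose low counts are no measure of expression. Among the 7 measured genes the middle value was that of mt-Nd5, 0.27 ± 0.11. Libraries in serum had 5325, 5678 and 5267 CPM of mt-Cytb and 4-day libraries 6817, 10366 and 9172 (log2 0.70 ± 0.12, adjusted p = 0.00013). For mt-Rnr2 the values were 1932, 2317 and 2087 against 3192, 4115 and 3308 (log2 0.74 ± 0.10). All 4-day libraries of both genes lay above all serum libraries.

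On the other strand, mt-Nd6 had 441, 456 and 426 CPM in serum and 675, 804 and 612 at 4 days, again without overlap, a 1.58-fold rise (log2 0.66 ± 0.09). Complex I genes were divided: mt-Nd4 rose by 0.62 ± 0.11, while mt-Nd1 (-0.28 ± 0.15), mt-Nd2 (-0.10 ± 0.15) and the complex IV gene mt-Co1 (0.18 ± 0.09) did not pass and had overlapping libraries. For mt-Nd5 the rise of 0.27 ± 0.11 (adjusted p = 0.0426) rested on overlapping libraries, and it was lost on leaving out any 1 library except the first 4-day one. The first 4-day library was the lowest of its group in mt-Nd1 (876, against 1596 and 1274 CPM), and without it mt-Co1 passed as well. Without the second 4-day library mt-Nd1 and mt-Nd2 passed, both lower at 4 days. Mki67 averaged 487 CPM ± 35.6 (SD, n = 3) in serum and 7.09 ± 5.75 (SD, n = 3) at 4 days, and the 12 neuronal markers summed to 3544 and 9986 CPM; their part in the result was not tested.

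**Figure D2:**
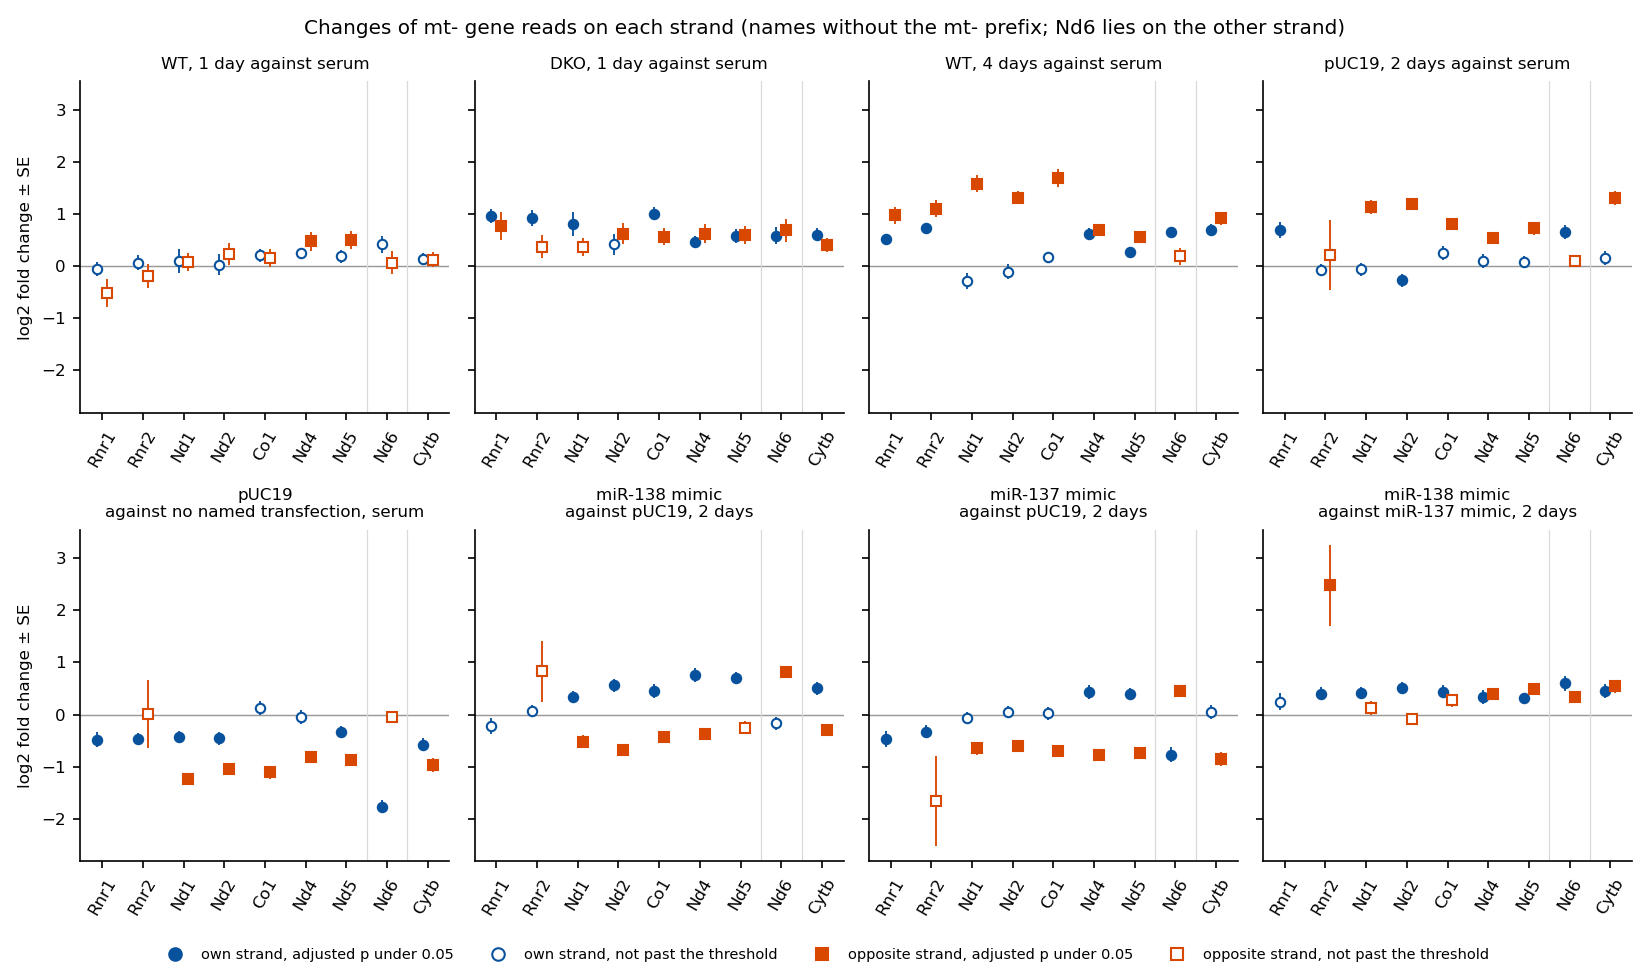
Log2 fold changes with SE of the measured members in 8 comparisons, for reads on a gene's own strand and on the opposite strand. For 4 days without serum, opposite-strand reads of mt-Nd1 and mt-Co1 stand at 1.59 and 1.70 while their own-strand reads stand at -0.28 and 0.18.

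The third experiment first allowed pUC19-transfected cells to be set against cells with no transfection named, both labelled DKO and both in serum. Here 5 of 7 protein genes, both rRNAs and 2 of 11 tRNAs were lower with pUC19 and none was higher, where 15.5% of all genes were lower and 10.7% higher. Of these 2 tRNAs, mt-Tn passed the low-count filter only through the libraries with no transfection named, so its call adds no support. The protein genes' median was -0.43, against -0.04 over all genes. How the untransfected cells were plated and timed was not given beyond their labels, so transfection and handling cannot be told apart.

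By far the largest of the 7 differences was that of mt-Nd6, a complex I subunit gene and the one protein gene on its strand. It had 337 and 388 CPM with no transfection named and 120 and 90.4 with pUC19, a fold change of 0.29 (log2 -1.77 ± 0.13, adjusted p = 1.22e-08). The groups were far apart, and the call held with every library left out in turn. For mt-Cytb (-0.58 ± 0.13), mt-Nd2 (-0.46 ± 0.12), mt-Nd1 (-0.43 ± 0.12), mt-Nd5 (-0.34 ± 0.11), mt-Rnr1 (-0.48 ± 0.15) and mt-Rnr2 (-0.47 ± 0.12) the differences were smaller. Without the second library with no transfection named, mt-Nd6 was the 1 protein gene left and neither rRNA passed; without the second pUC19 library, 2 protein genes were left, mt-Nd6 and mt-Cytb, and neither rRNA; without the first library with no transfection named, mt-Rnr1 was lost. DESeq2 called 3 protein genes and 0 rRNAs.

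**Figure D3:**
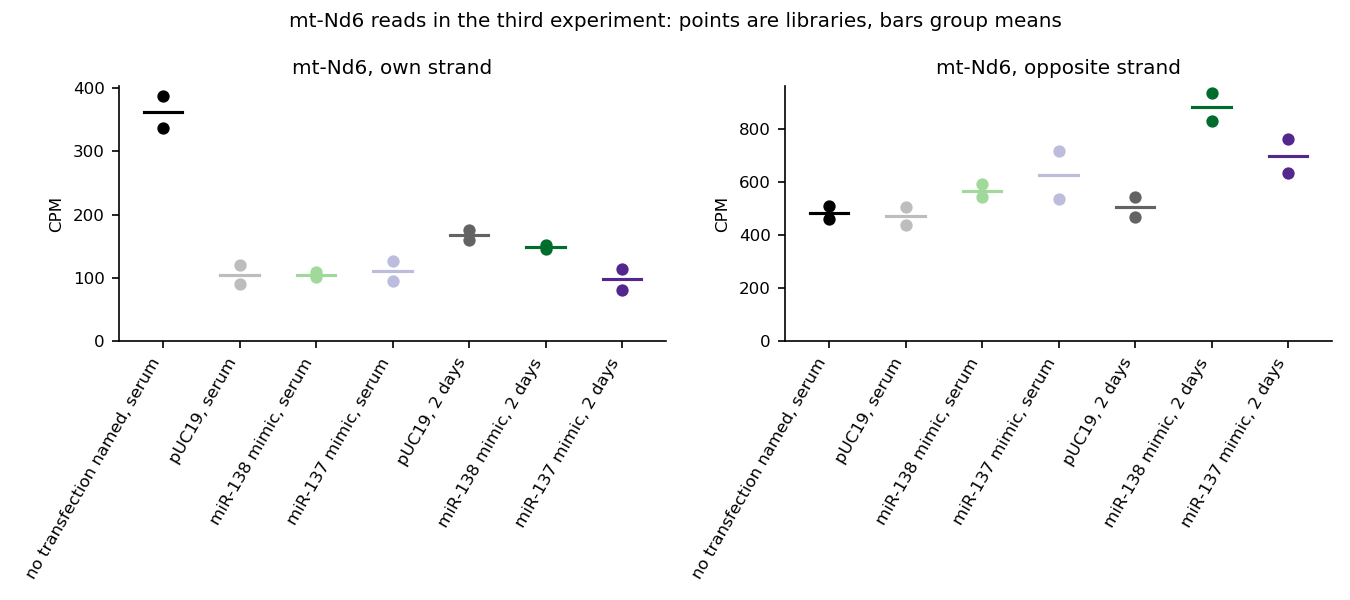
Reads of mt-Nd6 on its own strand and on the opposite strand in the third experiment, in CPM, 1 point per library and group on the horizontal axis. Own-strand levels are 337 and 388 with no transfection named and at most 176 elsewhere, while opposite-strand levels of the same libraries are 460 and 507, within the range of the other groups.

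The mimics were compared with pUC19 in serum first. The miR-138 mimic raised 1 protein gene of 7, mt-Nd5 (1822 and 1583 CPM with pUC19, 2190 and 2116 with the mimic, log2 0.34 ± 0.11), and 1 tRNA, mt-Tl1 (0.55 ± 0.22), with 28.7% of all genes higher and 27.3% lower. The miR-137 mimic raised mt-Nd5 too (0.39 ± 0.11) and lowered the tRNA mt-Tm (-1.89 ± 0.55), with 23.1% of all genes higher and 22.5% lower. These 2 comparisons share the pUC19 libraries. Neither rRNA passed in either: mt-Rnr2 had 0.05 ± 0.12 and -0.01 ± 0.12, with 0 and 0 unadjusted p under 0.05 among the rRNAs and 0 calls by DESeq2. The medians of the protein genes were 0.14 and 0.19, against 0.03 and -0.01 over all genes.

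Single libraries decided these calls. For the miR-138 mimic, mt-Nd5 was lost (0 protein genes left) without the first mimic library or the second pUC19 library, and for the miR-137 mimic without its second library or the second pUC19 library. The 2 miR-137 libraries in serum stood apart, with 3779 and 5460 CPM of mt-Cytb and 2944 and 4307 of mt-Co1; without the first of them, 6 protein genes were higher than with pUC19. DESeq2 called 0 protein genes with either mimic. With no low-count filter 6 protein genes passed for miR-138 and 5 for miR-137, and with the compared libraries alone 5 and 2. Set against each other in serum, the mimics differed in 1 protein gene, mt-Nd1, lower with miR-138 (-0.31 ± 0.12), where 32.7% of all genes were higher and 30.7% lower. That call was lost without the second miR-138 library (0 left); without the first miR-137 library 3 protein genes passed, and without the second 2 others passed, mt-Nd4 and mt-Cytb, both higher with miR-138, as did mt-Rnr2.

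At 2 days without serum, with the miR-138 mimic, 6 of 7 protein genes were higher than with pUC19 and none was lower, where 30.9% of all genes were higher and 31.1% lower; the median was 0.50, against 0.00 over all genes. Levels of mt-Nd4 were 1067 and 1176 CPM with pUC19 and 1957 and 1850 with the mimic, a 1.70-fold difference (log2 0.76 ± 0.13, adjusted p = 4.42e-05). Those of mt-Nd5 were 1686 and 1934 against 3079 and 2844 (log2 0.71 ± 0.11). Neither gene's groups overlapped.

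Also higher were mt-Nd2 (0.56 ± 0.12), mt-Cytb (0.50 ± 0.13), mt-Co1 (0.45 ± 0.13) and mt-Nd1 (0.34 ± 0.12). All 6 lie on the main strand; mt-Nd6, with 159 and 176 CPM against 152 and 146, had -0.17 ± 0.13 and did not pass. The rRNAs, which lie on the main strand, had -0.22 ± 0.15 (mt-Rnr1) and 0.07 ± 0.12 (mt-Rnr2), with 0 unadjusted p under 0.05 and 0 DESeq2 calls. Without the first pUC19 2-day library 4 protein genes were left, mt-Nd1 and mt-Co1 being lost, and DESeq2 called 4. Mki67 averaged 337 CPM with the mimic and 524 with pUC19, and the 5 fibroblast markers summed to 37.6 and 27.2 CPM; their part in the result was not tested.

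With the miR-137 mimic, 2 protein genes were higher and 1 was lower than with pUC19 at 2 days, where 20.5% of all genes were higher and 22.2% lower. The higher ones were mt-Nd4 (0.43 ± 0.13) and mt-Nd5 (0.40 ± 0.11), and both were lost without the second mimic library or the first pUC19 library, leaving 1. The lower one, mt-Nd6, had 81.4 and 114 CPM against 159 and 176 with pUC19, a fold change of 0.58 (log2 -0.77 ± 0.14, adjusted p = 0.000137), and did not overlap. Both rRNAs were lower, mt-Rnr1 by -0.47 ± 0.15 and mt-Rnr2 by -0.33 ± 0.12; neither passed without the first mimic library or the second pUC19 library, and DESeq2 called 0 of 2. DESeq2 called 1 protein gene. The protein genes' median was 0.05, against -0.02 over all genes.

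A change in the difference between the mimics from serum to 2 days was not tested. Compared directly at 2 days, all 7 protein genes with enough reads were higher with the miR-138 than with the miR-137 mimic, where 30.8% of all genes were higher and 30.8% lower. The differences ran from 0.31 ± 0.11 (mt-Nd5) to 0.60 ± 0.14 (mt-Nd6), and mt-Rnr2 was higher as well (0.40 ± 0.12). Levels of mt-Nd2 were 1698 and 1482 CPM with miR-138 and 1038 and 1188 with miR-137, with no overlap. Without the first miR-137 library 2 protein genes were left, mt-Nd2 and mt-Nd6, and mt-Rnr2 was lost; without the first miR-138 library 4 were left. DESeq2 called 3 of the 7.

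Serum withdrawal itself was then followed within each transfection, from serum to 2 days without it. With pUC19, mt-Rnr1 rose from 157 and 130 CPM to 208 and 261 (0.70 ± 0.15) and mt-Nd6 from 120 and 90.4 to 159 and 176 (0.66 ± 0.14), both without overlap, and mt-Nd2 fell by 0.27 on the log2 scale (SE 0.12). That made 1 protein gene of 7 higher and 1 lower, where 28.4% of all genes were higher and 31.3% lower, with a median of 0.10 against -0.02 over all genes. The fall of mt-Nd2 (adjusted p = 0.0487) was lost without the first pUC19 serum library or either pUC19 2-day library; without the first 2-day library mt-Co1 passed in its place.

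With the miR-138 mimic, 6 of 7 protein genes rose and none fell, where 31.1% of all genes were higher and 32.2% lower. The largest rise was that of mt-Co1, from 2875 and 3073 CPM to 5708 and 5519, or 1.89-fold (log2 0.92 ± 0.13, adjusted p = 5.33e-06). Those of mt-Nd4 (0.67 ± 0.13), mt-Nd6 (0.50 ± 0.13), mt-Nd5 (0.46 ± 0.11), mt-Cytb (0.45 ± 0.13) and mt-Nd1 (0.40 ± 0.12) followed, and mt-Nd2 had 0.14 ± 0.12. The median was 0.46, against 0.00 over all genes. The same 6 passed with each of the 4 libraries left out in turn, and DESeq2 called 6. Of the rRNAs, mt-Rnr1 rose (0.45 ± 0.15), a call lost without the second 2-day library and not made by DESeq2, which called 0 rRNAs, and mt-Rnr2 had -0.04 ± 0.12.

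With the miR-137 mimic, mt-Nd4 rose (0.33 ± 0.13) and mt-Nd1 (-0.32 ± 0.12), mt-Nd2 (-0.45 ± 0.12) and mt-Rnr2 (-0.38 ± 0.12) fell, where 33.2% of all genes were higher and 32.6% lower. Libraries overlapped for mt-Nd4, mt-Nd1 and mt-Rnr2. Levels of mt-Nd2 were 1281 and 1756 CPM in serum and 1038 and 1188 at 2 days. Without the second serum library mt-Nd1, mt-Nd2 and mt-Rnr2 were lost, and mt-Co1, mt-Nd5, mt-Cytb and mt-Rnr1 were higher instead, 4 protein genes in all with mt-Nd4. Leaving out the first 2-day library lost mt-Nd1 and mt-Rnr2, and leaving out the first serum or the second 2-day library lost mt-Nd4 and added mt-Nd6. DESeq2 called 1 protein gene.

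The interaction of a mimic with withdrawal, against pUC19, passed for 3 protein genes with miR-138, all with a larger rise: mt-Co1 (0.66 ± 0.19), mt-Nd4 (0.57 ± 0.18) and mt-Nd1 (0.46 ± 0.17). Of all genes, 13.3% had a higher and 14.5% a lower interaction. Without the first pUC19 2-day library 0 were left; without the second pUC19 serum or the first miR-138 2-day library 1, mt-Co1, was left; mt-Nd1 was lost in every case but that of the second pUC19 2-day library. DESeq2 called 0 protein genes, and 5 had an unadjusted p under 0.05. With miR-137 it passed for mt-Nd6 alone of the 7 (-0.84 ± 0.20, adjusted p = 0.00408), where 11.9% of all genes had a higher and 11.4% a lower interaction. That call held with each library left out; a second gene passed without the first (mt-Nd1) or the second (mt-Nd4) miR-137 serum library. The mimic comparisons at both times share pUC19 libraries with these interactions. From serum to 2 days, mean Mki67 went from 884 to 524 CPM with pUC19, from 391 to 337 with miR-138 and from 1069 to 532 with miR-137, and mean Tubb3 from 32.1 to 44.7, from 11.4 to 8.90 and from 71.1 to 244; their part in the results was not tested.

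Because the libraries kept strand, reads that ran against a gene could be counted as well. For the main-strand protein genes these reads run in the direction of mt-Nd6, and for mt-Nd6 they run in the direction of the main strand. Among all other genes 2.92% to 3.54% of reads in a library were opposite to the gene. In the second experiment this share was 3.052% to 3.13% in serum and 3.285% to 3.504% at 4 days. Among main-strand protein genes the share was 21.6% to 31.8% in the first experiment, 9.56% to 9.80% for wild-type cells of the second experiment in serum, 11.04% to 17.5% for the same cells at 4 days, and 5.35% to 9.93% for the third experiment. Among the rRNAs it ranged from 2.39% to 5.58% in the first experiment, from 1.01% to 1.70% in the second, and lay below these in the third, at 0.0837% to 0.480%. Library preparation and read length differed between the first 2 experiments and the third, so its lower shares cannot be told apart from the method.

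The shares differed between genes within a library. In the wild-type serum libraries of the first experiment, opposite reads were 54.1% and 51.3% of those at mt-Nd5, whose end overlaps mt-Nd6 in the RefSeq annotation, and 35.5% and 33.9% at mt-Nd4, but 9.60% and 9.64% at mt-Co1. At mt-Nd6 itself they were 36.8% and 37.3%. In the third experiment they were 74.7% to 88.6% of reads at mt-Nd6 in all transfected libraries, and 57.8% and 56.6% with no transfection named. Reads of mt-Nd6 in its own direction were thus the smaller part in every library of that experiment.

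**Figure D4:**
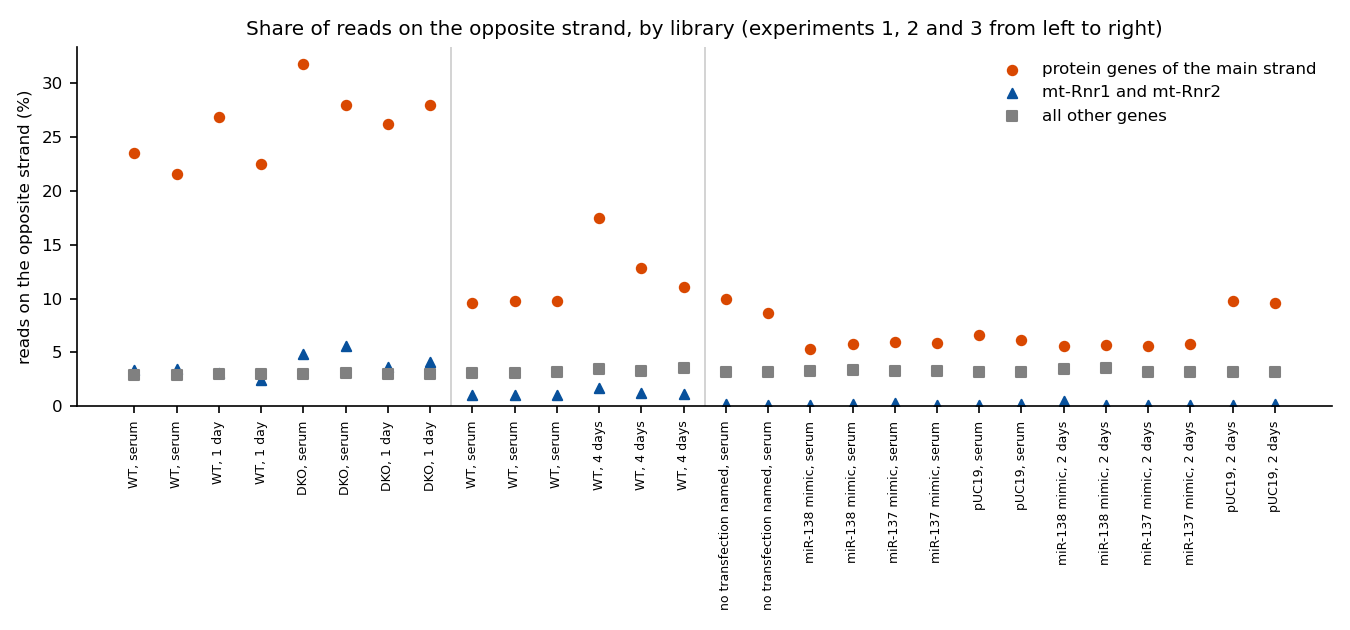
Percent of reads opposite to the gene in each library, for main-strand protein genes, rRNAs and all other genes. Main-strand protein genes reach 31.8% in the first experiment and 17.5% in the second, while all other genes stay between 2.92% and 3.54%.

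Opposite-strand reads of the members were tested as added lines of the same fits, with p-values adjusted over all genes and these lines, a test added after the reads had been seen. The shares of all genes set beside these calls are of own-strand reads. Opposite-strand reads of other genes were not tested, so these shares are not a like measure. In wild-type cells at 4 days, where 36.2% of all genes were higher and 34.7% lower, 6 of 7 protein genes had more opposite-strand reads and none had fewer. Those of mt-Co1 went from 118, 151 and 145 CPM to 600, 413 and 331 (log2 1.70 ± 0.17, adjusted p = 8.7e-07). Those of mt-Nd1 went from 95.8, 133 and 114 to 432, 340 and 260 (1.59 ± 0.16), without overlap. Own-strand reads of these 2 genes had not passed. The first 4-day library was the highest of its group in both, and opposite-strand reads of mt-Nd6 (0.19 ± 0.16) did not pass.

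After 1 day the opposite-strand reads of mt-Nd4 (0.48 ± 0.18) and mt-Nd5 (0.50 ± 0.17) rose in wild-type cells, where 20.4% of all genes were higher. Both were lost, leaving 0, without the second serum library or the first 1-day library, and mt-Nd4 was lost without the first serum library. In DKO-labelled cells, with 19.9% of all genes higher, 6 of 7 rose, by 0.41 to 0.69, and 0 of them passed without the second 1-day library. DESeq2 called 0 in either. Between DKO-labelled and wild-type cells, 0 of 7 differed in serum, where 19.2% of all genes were higher and 21.5% lower (1 had an unadjusted p under 0.05, and DESeq2 called 0), although 4 passed without the first DKO-labelled library and 1, mt-Nd6, without the second. At 1 day, with 21.9% of all genes higher, 5 of 7 were higher in DKO-labelled cells, by 0.43 to 0.55, and 0 passed without the second library of either group; DESeq2 called 0.

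In the third experiment, pUC19 libraries in serum had fewer opposite-strand reads than those with no transfection named at all 6 main-strand genes, with 15.5% of all genes lower, from -0.81 ± 0.11 (mt-Nd4) to -1.24 ± 0.12 (mt-Nd1). Opposite-strand reads of mt-Nd6, which run with the main strand, had -0.04 ± 0.11. Levels at mt-Nd5 were 1114 and 1217 CPM with no transfection named and 685 and 590 with pUC19. All 6 calls held with each library left out in turn, and DESeq2 called 6. Reads in the direction of mt-Nd6 were thus lower at mt-Nd6 and at the 6 genes opposite to it. In the main direction, 4 of these 6 genes, both rRNAs and the reads opposite to mt-Tc (-0.66 ± 0.20) were lower too, while mt-Co1 (0.13 ± 0.13) and mt-Nd4 (-0.05 ± 0.13) did not pass. Of 9 tRNAs tested for opposite-strand reads, 3 were lower and 0 higher. Reads opposite to mt-Te, in the main direction, were 15 and 20.3 CPM with no transfection named and 39 and 43.9 with pUC19. Those opposite to mt-Ts2, in the direction of mt-Nd6, were 2.58 and 2.44 against 4.09 and 3.14. Neither rise passed.

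Withdrawal for 2 days raised opposite-strand reads at all 6 main-strand genes in pUC19 cells, with 28.4% of all genes higher, from 0.55 ± 0.11 (mt-Nd4) to 1.31 ± 0.13 (mt-Cytb). With the miR-138 mimic, where 31.1% of all genes were higher, 4 of the 6 rose, by 0.35 to 0.70, together with those of mt-Nd6 (0.64 ± 0.11), and with the miR-137 mimic (33.2% of all genes higher, 32.6% lower) mt-Nd2 rose (0.56 ± 0.11) and mt-Nd4 fell (-0.30 ± 0.11), a call lost without the second serum or the first 2-day library. At 2 days, 5 of the 6 were lower with miR-138 than with pUC19 (-0.30 to -0.68), with 31.1% of all genes lower, and all 6 were lower with miR-137 (-0.60 to -0.85), with 22.2% of all genes lower. At mt-Nd2 the values were 132 and 152 CPM with pUC19, 87.2 and 89.8 with miR-138 and 89.5 and 98.0 with miR-137, without overlap between pUC19 and either mimic. The reads opposite to mt-Nd6 went the other way, from 469 and 542 CPM with pUC19 to 936 and 830 with miR-138 (0.81 ± 0.11) and 634 and 760 with miR-137 (0.46 ± 0.11).

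Calls at 2 days moved little on leaving out a library: between 5 and 7 of the 7 genes passed for miR-138 and between 6 and 7 for miR-137, where mt-Nd6 was lost without the second mimic library; for miR-138, mt-Cytb was lost without the first mimic or the second pUC19 library. The interactions with withdrawal passed for 4 of the 6 main-strand genes with miR-138 and for all 6 with miR-137, all lower, against 14.5% and 11.4% of all genes with a lower interaction, and for mt-Nd6 with miR-138 (0.54 ± 0.16). Those of mt-Cytb (lost in 4 cases of 8) and mt-Nd6 (lost in 4) with miR-138 depended on single libraries, leaving 3 genes without the second miR-138 serum or the first miR-138 2-day library. In serum, 2 of 7 genes had more opposite-strand reads with miR-138 than with pUC19 (mt-Nd1 and mt-Nd6), and 2 with miR-137 (mt-Nd6 and mt-Cytb), where 28.7% and 23.1% of all genes were higher; without the second pUC19 library 0 passed for either, nor did any for miR-137 without its second library, while 4 passed for miR-138 without the first pUC19 library. Between the mimics, 4 genes had more with miR-138 at 2 days, by 0.34 to 0.54, with 30.8% of all genes higher; 1 was left without the first miR-137 library and 2 without the first miR-138 library. In serum mt-Co1 was higher (0.30 ± 0.12) and mt-Nd4 lower (-0.26 ± 0.11) with miR-138, and 0 passed without the second miR-137 library.

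The tRNAs had few reads in these poly(A)-selected libraries, and reads of a tRNA gene can belong to an uncut precursor. At 4 days in wild-type cells, mt-Tq (1.49 ± 0.27), mt-Ta (1.38 ± 0.27), mt-Ty (1.51 ± 0.44) and mt-Te (1.12 ± 0.43), which lie on the strand of mt-Nd6, rose, and so did mt-Tt (1.34 ± 0.20) of the main strand. Levels of mt-Tq were 3.06, 5.70 and 5.12 CPM in serum and 17.4, 11.4 and 10.5 at 4 days. Opposite-strand reads of mt-Ty fell by 1.44 (SE 0.25) and those of mt-Ta fell by 0.64 (SE 0.27), while their own-strand reads rose; at mt-Ty the own strand had 0.868, 1.19 and 1.29 CPM in serum and 3.93, 3.35 and 2.32 at 4 days, and the opposite strand 10.5, 10.8 and 8.78 and then 2.61, 4.11 and 4.31. In DKO-labelled cells mt-Ta (1.16 ± 0.29) and mt-Tp (0.75 ± 0.22) rose after 1 day, and mt-Ty was higher than in wild-type cells at that time (0.70 ± 0.26). Neither rise passed without the second DKO-labelled 1-day library (0 left), nor did mt-Ty without the second library of either 1-day group, and mt-Te at 4 days was lost on leaving out the first or second serum library, or any 4-day library but the second; mt-Tp at 1 day was lost on leaving out the first library of either DKO-labelled group as well.

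In the third experiment mt-Tn had 58 and 45 reads in the libraries with no transfection named and 1 and 0 with pUC19, a ratio of 79.8 with an exact 95% interval of 14 to 3180 that covers counting error only. Its other libraries had 0 to 7 reads. The low-count filter thus admitted mt-Tn only through the group where it was high, and its call as lower with pUC19 adds no support. The proline tRNA mt-Tp, on the strand of mt-Nd6, had 11.1 and 9.76 CPM with no transfection named and 5.90 and 5.73 with pUC19 (-0.84 ± 0.15), and 9.21 and 10.7 with pUC19 at 2 days (0.77 ± 0.15). At 2 days it was lower with miR-138 (-0.91 ± 0.16) and with miR-137 (-0.50 ± 0.15) than with pUC19. The threonine tRNA mt-Tt, its neighbour on the main strand, was higher with miR-138 than with pUC19 (2.96 ± 0.50), but the 2 mimic libraries had 14.2 and 3.67 CPM, against 1.30 and 1.02 with pUC19. Between the mimics at 2 days, mt-Tt, mt-Ti, mt-Tq, mt-Tm and mt-Tw were higher and mt-Tp was lower with miR-138.

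Other tRNA calls of the third experiment rested on single libraries, and those at 2 days on means below 4 CPM apart from mt-Tt and mt-Tp. With miR-138 at 2 days mt-Tr had 16 and 14 reads, and at most 9 in any other library. The low-count filter admitted mt-Tr only through that group, so its calls as higher there add no support. For mt-Tc, reads were 8 and 21 with pUC19 at 2 days and at most 11 in any other library. Its passing of the filter needed the second of these pUC19 libraries. The call of mt-Tc as lower with miR-137 at 2 days, given below, therefore adds no support. At 2 days mt-Ti (0.94 ± 0.38), mt-Tm (1.14 ± 0.48) and mt-Tr (2.82-fold) were higher with miR-138 than with pUC19, and all 3 were lost without the first mimic library or the second pUC19 library, mt-Tr also in the other cases. With miR-137, mt-Tq (-1.53 ± 0.56) and mt-Tc (-1.78 ± 0.65) were lower, and with mt-Tp they were lost without the first mimic library (0 left) or the second pUC19 library; without the second mimic library 1 was left, mt-Tq. Of the 6 tRNAs that differed between the mimics at 2 days, mt-Tt alone passed without the first library of either mimic (1 left). In serum mt-Tm (2.27 ± 0.48) and mt-Ti (0.97 ± 0.36) were higher with miR-138 than with miR-137. The serum call of mt-Tl1 was lost without the second miR-138 library or either pUC19 library, and that of mt-Tm with miR-137 without its first library or the second pUC19 library. From serum to 2 days, mt-Tt (2.46 ± 0.42) and mt-Tr (1.68 ± 0.46) rose with miR-138, mt-Tm fell with pUC19 (-1.20 ± 0.48), and with miR-137 no tRNA of 11 passed in edgeR, where 0 had an unadjusted p under 0.05 and DESeq2 called 0.

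Nuclear genes that serve the mitochondrion were examined by 10 lists, chosen with earlier results of these data known. At 4 days in wild-type cells, 34.7% of all genes were lower and 36.2% higher. There 76 of 76 mitochondrial ribosomal protein genes were lower (median -1.13), as were 34 of 36 nuclear complex I genes (-1.04). So were 9 of 9 of complex III (-1.03), 10 of 11 of complex IV (-0.96) and 15 of 15 of complex V (-1.17). The mitochondrially encoded protein genes had a median of 0.45, which includes the low counts of mt-Co3, mt-Co2 and mt-Atp6. Among those with enough reads the middle value was that of mt-Nd5, 0.27 ± 0.11. Cyc1, the cytochrome c1 subunit that joins the mt-Cytb product in complex III, averaged 534 CPM ± 17.9 (SD, n = 3) in serum and 138 ± 16.8 (SD, n = 3) at 4 days (-1.95 ± 0.09). Among 21 genes of mitochondrial RNA processing and stability, 18 were lower, including Lrpprc, which stabilises mitochondrial mRNAs (-1.46 ± 0.08), and Elac2, which cuts tRNA ends (-1.48 ± 0.09). Tfam, which packages mitochondrial DNA and starts its transcription, was lower (-0.82 ± 0.10), as was Nrf1, a regulator of nuclear respiratory genes (-1.58 ± 0.09). Of 11 transcription genes 6 were lower and 2 higher.

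In DKO-labelled cells at 1 day, with 20.4% of all genes lower, 23 of 36 nuclear complex I genes were lower and 1 higher (median -0.38), and 48 of 76 ribosomal protein genes were lower, against a median of 0.58 for the mitochondrially encoded protein genes. In wild-type cells at 1 day, with 20.3% of all genes lower, 11 of 36 complex I genes were lower and 1 higher, and 45 of 76 ribosomal protein genes were lower. Polrmt, the mitochondrial RNA polymerase, was lower by -0.29 ± 0.09 in DKO-labelled and -0.25 ± 0.09 in wild-type cells. With the miR-138 mimic at 2 days, nuclear and mitochondrial genes of the respiratory chain were both higher than with pUC19: 30 of 36 complex I genes were higher and 2 lower (median 0.36), 7 of 9 of complex III and 10 of 11 of complex IV were higher (medians 0.34 and 0.46), and 21 of 75 ribosomal protein genes were higher and 16 lower (0.02), where 30.9% of all genes were higher and 31.1% lower. From serum to 2 days, nuclear genes of complexes I, III and IV had medians of -0.04, -0.19 and 0.30 with miR-138. With pUC19 these were -0.25, -0.41 and -0.04. The mitochondrially encoded protein genes had 0.46 and 0.10, against 0.00 and -0.02 over all genes. With miR-137 against pUC19 at 2 days, 8 of 36 complex I genes were higher and 3 lower (0.05), with 20.5% of all genes higher and 22.2% lower. Between pUC19 and no named transfection in serum, 7 complex I genes were higher and 10 lower (-0.06), and 2 of 11 transcription genes were lower, with 10.7% of all genes higher and 15.5% lower.

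**Figure D5:**
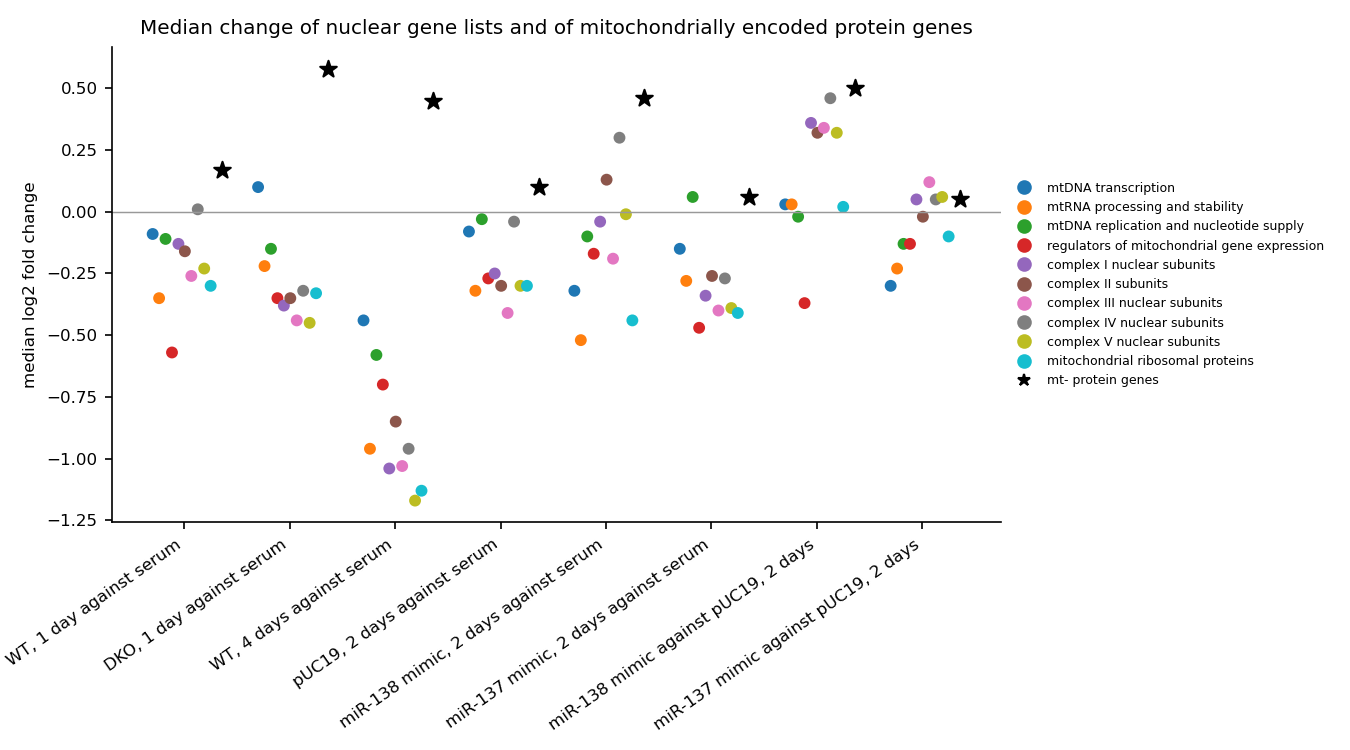
Median log2 fold change of 10 lists of nuclear genes and, as a star, of the mitochondrially encoded protein genes, in 8 comparisons. In the first 2 experiments the star includes protein genes with low counts. At 4 days without serum the star stands at 0.45 and the list of mitochondrial ribosomal proteins at -1.13; with the miR-138 mimic at 2 days the star stands at 0.50 and nuclear complex I at 0.36.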

How the data were processed

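Poly(A)-selected, strand-specific libraries (dUTP method, or TruSeq Stranded mRNA in the third experiment) were sequenced as 75-bp pairs or 50-bp single reads, per the labels' protocols. Reads were aligned with STAR to mm9, per the submitters' processing notes; versions and the annotation were not given in the sources used here. The deposited files give whole-number counts per gene as STAR writes them: unstranded and for each strand, with reads mapped to several places left out. The column of the gene's own strand was used, and the other strand's column gave the opposite-strand counts. Lines that name no gene stayed out of library sizes. Counts were scaled by TMM and tested with edgeR 4.0.16 (quasi-likelihood, limma 3.58.1, R 4.3.3), 1 fit per experiment, on genes that passed filterByExpr (minimum count 10, minimum total 15), with Benjamini-Hochberg adjustment and a threshold of 0.05. Interaction terms tested differences between responses. Alternatives were DESeq2 1.42.0, RLE scaling, library totals, scaling from nuclear genes, no low-count filter, unstranded counts, the compared libraries alone, a replicate block and leaving out each library. The steps were tested on simulated data, and tables were made with Python 3.11.15, pandas 2.3.3 and matplotlib 3.10.9. All members were candidates to be named; of each nuclear list up to 4 called genes with the smallest p and a mean of at least 5 CPM could be. Earlier results of these data were known when the members and lists were chosen. Members were taken by name alone, and no measured value entered that choice. RefSeq (GRCm38.p6) served for symbols, nuclear copies, the order of the mitochondrial genes and their overlaps with neighbours. No coordinates or sequences are given.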

Additional observations from a re-analysis of the deposited data

Results flagged for a closer look

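Each result here is an interaction term in edgeR's quasi-likelihood test that passed at an adjusted p under 0.05, that is, a response to serum withdrawal that differed between 2 groups of cells; values are log2 differences of the responses, with SE. Between DKO-labelled and wild-type cells, own-strand reads of mt-Rnr1 (1.01 ± 0.20), mt-Rnr2 (0.86 ± 0.22) and mt-Co1 (0.81 ± 0.19) differed. Between the miR-138 mimic and pUC19, own-strand reads of mt-Nd1 (0.46 ± 0.17), mt-Co1 (0.66 ± 0.19), mt-Nd4 (0.57 ± 0.18), mt-Tt (2.89 ± 0.80) and mt-Tp (-0.97 ± 0.22) differed. So did opposite-strand reads of mt-Nd1 (-0.92 ± 0.17), mt-Nd2 (-0.68 ± 0.14), mt-Co1 (-0.65 ± 0.17), mt-Cytb (-0.60 ± 0.18), mt-Tt (-0.77 ± 0.28), mt-Nd6 (0.54 ± 0.16), mt-Te (2.63 ± 0.63) and mt-Tp (3.20 ± 1.15). The 2 libraries with miR-138 at 2 days had 15.3 and 2.38 CPM opposite to mt-Tp, and that interaction passed in 2 of 8 cases with a library left out. Those opposite to mt-Te were 24.2 and 3.54 CPM with pUC19 at 2 days and 15.2 and 49.8 with miR-138 in serum; its interaction passed with each library left out, at 1.87 to 4.64, but not in DESeq2. Between the miR-137 mimic and pUC19, own-strand reads of mt-Nd6 differed (-0.84 ± 0.20), and opposite-strand reads of mt-Nd1 (-0.94 ± 0.18), mt-Nd2 (-0.63 ± 0.15), mt-Co1 (-0.63 ± 0.18), mt-Nd4 (-0.85 ± 0.16), mt-Ts2 (-1.31 ± 0.28), mt-Nd5 (-0.79 ± 0.17) and mt-Cytb (-1.27 ± 0.20). The comparisons with both mimics share the pUC19 libraries, and no group had 4 or more libraries, so no library was tested as an outlier.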

How the results depend on the processing

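Counts below are of protein genes that passed. Leaving out 1 library at a time (a lone library is assumed to vary like the others) gave 0 to 1 in wild-type cells at 1 day, 2 to 7 in DKO-labelled cells at 1 day, 1 to 5 between these in serum, 1 to 4 at 1 day and 0 to 7 for their interaction; 3 to 5 at 4 days; 1 to 5 for pUC19 against no transfection named; 0 to 1 (miR-138) and 0 to 6 (miR-137) against pUC19 in serum, 4 to 6 and 1 to 3 at 2 days; 0 to 3 between mimics in serum and 2 to 7 at 2 days; 1 to 2 (pUC19), 6 to 6 (miR-138) and 2 to 4 (miR-137) for 2 days against serum; and 0 to 4 (miR-138) and 1 to 2 (miR-137) for interactions with withdrawal. With no low-count filter 5 passed in wild-type cells at 1 day, 5 for DKO-labelled against wild-type in serum, 6 for their interaction, 6 and 5 for miR-138 and miR-137 in serum, 2 between the mimics in serum, 5 for pUC19 and 6 for miR-137 at 2 days against serum, and 6 and 3 for the interactions of miR-138 and miR-137. DESeq2 gave 1 for DKO-labelled against wild-type in serum, 1 at 1 day and 0 for the interaction; 3 for pUC19 against no transfection named; 0 for each mimic in serum, 1 for miR-137 at 2 days, 0 between mimics in serum and 3 at 2 days; 1 each for pUC19 and miR-137 at 2 days against serum; and 0 for the miR-138 interaction. Of 105 own-strand calls it kept 57, lost 48 and reversed none. The compared libraries alone gave 3 in wild-type cells at 1 day, 1 for DKO-labelled against wild-type in serum, 5 and 2 for miR-138 and miR-137 in serum, 4 for pUC19 at 2 days against serum and 6 for the miR-138 interaction. RLE scaling gave 1 in wild-type cells at 1 day, 2 between mimics in serum and 1 for pUC19 at 2 days against serum; library totals alone gave 2, 0 and 1 there, and 2 for miR-138 in serum; scaling from nuclear genes gave 1 for pUC19 at 2 days against serum. Library totals moved the median of all genes by 0.15 at 4 days, 0.14 between mimics in serum and 0.10 for miR-138 in serum, and the share of higher calls from 51.0% to 58.1%, from 51.5% to 65.8% and from 51.2% to 63.9%; for pUC19 against no transfection named that share went from 40.9% to 59.3% (53.2% with nuclear scaling), and for the miR-137 interaction from 51.2% to 64.0%. RLE, library totals, nuclear scaling and no filter reversed no member. Replicate numbers did not pair the samples (same-number correlations of deviations 0.0104 to 0.0456, -0.0262 to 0.0254 and -0.187 to 0.0964 in the 3 experiments); the replicate block gave 2 in wild-type cells at 1 day, 2 for the genotype interaction, 2 between mimics in serum and 5 for the miR-138 interaction. Unstranded counts, which are not the sum of the 2 strands' counts, gave 1 for DKO-labelled against wild-type in serum, 0 and 2 for miR-138 and miR-137 in serum, 0 for miR-137 at 2 days, 1 for pUC19 at 2 days against serum, and 1 and 0 for the interactions of miR-138 and miR-137. With them, signs reversed for miR-138 against pUC19 at 2 days at mt-Tq (2.09), mt-Tm (-0.0643), mt-Nd6 (0.603) and mt-Tp (0.152); for miR-137 at mt-Tq (0.623) and mt-Nd6 (0.223); between mimics at mt-Ti in serum (-0.345) and mt-Tp at 2 days (0.660); for 2 days against serum at mt-Tq with pUC19 (-1.88) and mt-Ti (0.951) and mt-Tp (0.859) with miR-138; and for the miR-138 interaction at mt-Tp (0.0286). Without the second miR-137 serum library, miR-138 against miR-137 in serum reversed at mt-Nd4 (0.323, against -0.271 without the first; opposite strand 0.0427 against -0.517), and the opposite-strand change of mt-Nd4 with miR-137 at 2 days reversed (0.00307 against -0.557). For DKO-labelled against wild-type cells in serum, opposite-strand reads reversed at mt-Nd6 (0.306 without the first and -0.665 without the second DKO-labelled library) and at mt-Te (0.910 and -2.53). The cause of these changes was not tested; another 422 of 7780 values differed in sign where neither setting passed. Shares of reads from all members were higher with unstranded counts: wild-type 1.62% in serum (1.29%) and 1.89% at 1 day (1.47%), DKO-labelled 1.40% (1.01%) and 2.36% (1.77%), second experiment in serum 2.26% (2.01%), miR-138 1.76% in serum (1.60%) and 2.58% at 2 days (2.34%), and pUC19 1.56% (1.41%) and 1.79% (1.57%), with the value on the own strand in brackets. Over assigned, ambiguous and unassigned reads they were lower: wild-type 1.08% and 1.27%, second experiment 1.70% and 2.41% at 4 days (2.99%), miR-138 1.47% and 2.12%, pUC19 1.27% and 1.39%. Depth limited the tRNAs; why 6 protein genes were near 0 was not tested.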
